A study of Mus musculus with 2 samples.

Results

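Col1a1, Col1a2, Col3a1, Col5a1, Col5a2 and Col5a3 are the 6 genes for the chains of collagen types I, III and V, and were taken by their symbols from the 31054 genes of the count tables, which hold 11 fibrillar collagen genes in all. Their RNA was read in droplet libraries of single cells from gonadal white adipose tissue (gWAT) of 18-month-old male p16-CreERT2/R26-LSL-tdTomato mice. In these mice the p16 promoter drives a Cre recombinase that acts only with tamoxifen. Cre cuts out the stop cassette of a tdTomato reporter in the Rosa26 locus. A cell that expressed p16 while tamoxifen acted therefore keeps the reporter. All mice had received tamoxifen and were killed 2 weeks later. CD31- CD45- cells, a gate that leaves out endothelial and immune cells, were sorted by tdTomato fluorescence into Tom+ and Tom- cells, with 1 library for each. Both groups therefore share the genotype, the age and the tamoxifen. The number of mice behind each library is not given in the sources used here.

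Fibrillar collagens are the proteins of the cable-like fibrils of connective tissue. Their chains wind into a triple helix, which needs glycine at regular steps along each chain, and the trimers then assemble into fibrils outside the cell. Type I collagen holds Col1a1 and Col1a2 chains, type III is built of Col3a1 chains only, and type V, a minor component that starts fibrils and limits their width, is built of Col5a1 and Col5a2 chains with Col5a3 in some trimers. In adipose tissue these fibrils are made mainly by stromal cells, among them the progenitors of adipocytes, and they surround the adipocytes. Mesothelial cells, the lining layer of the gonadal depot, also make matrix.

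The genes lie on 5 chromosomes of GRCm38. Col1a1 (ENSMUSG00000001506) is on chromosome 11 from 94936224 to 94953042, Col1a2 (ENSMUSG00000029661) on chromosome 6 from 4504814 to 4541544, and Col5a1 (ENSMUSG00000026837) on chromosome 2 from 27886425 to 28039514, all on the plus strand. Col5a3 (ENSMUSG00000004098) is on the minus strand of chromosome 9 from 20770050 to 20815067. Col3a1 (ENSMUSG00000026043, plus strand, 45311538 to 45349706) and Col5a2 (ENSMUSG00000026042, minus strand, 45374321 to 45503282) are neighbours on chromosome 1. Their ends face each other across 24614 bases that hold no other gene.

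The coding sequences share the repeat that defines the family. An unbroken run of units of 3 codons, each opening with glycine, spans 338 units in Col1a1, 339 in Col1a2, 344 in Col3a1, 338 in Col5a1, 339 in Col5a2 and 337 in Col5a3. The first 45 coding bases of that run that lie in a single exon are shown here because they carry the feature the 6 genes have in common, with the glycine codons in capitals. They are exon 7 of Col1a1 (chr11:94939697-94939741, plus strand), exon 7 of Col1a2 (chr6:4515210-4515254, plus strand), exon 6 of Col3a1 (chr1:45325360-45325404, plus strand), exon 14 of Col5a1 (chr2:27964080-27964124, plus strand), exon 9 of Col5a2 (chr1:45423682-45423726, minus strand) and exon 14 of Col5a3 (chr9:20801216-20801260, minus strand).
Col1a1: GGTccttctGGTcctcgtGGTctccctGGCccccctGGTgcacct
Col1a2: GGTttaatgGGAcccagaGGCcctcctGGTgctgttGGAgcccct
Col3a1: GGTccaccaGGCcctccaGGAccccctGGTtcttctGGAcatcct
Col5a1: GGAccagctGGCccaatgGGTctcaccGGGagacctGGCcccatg
Col5a2: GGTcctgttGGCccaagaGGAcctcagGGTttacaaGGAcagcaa
Col5a3: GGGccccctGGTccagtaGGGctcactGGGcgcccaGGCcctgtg

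The glycine codons were not used alike. GGT made up 55.9% of the glycine codons in the run of Col1a1 and 51.6% in that of Col1a2, against 41.3% in Col3a1, 35.1% in Col5a2, 28.1% in Col5a1 and 25.2% in Col5a3. Codons for proline, the residue that is hydroxylated to steady the helix, filled 41.6% of the last positions of these units in Col3a1 and between 27.7% and 34.3% in the other 5 genes. The other fibrillar genes split in length, with runs of 338 or 339 units in Col2a1, Col11a1 and Col11a2 and of 216 and 217 in Col24a1 and Col27a1.

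RefSeq promoter windows were at hand for 4 of the 6 genes. The 150 bases before the RefSeq start are printed because the 6 RNAs varied together over stromal cells, with matches to 3 promoter motifs in capitals. The TATA box was searched as TATAAA on either strand. The CCAAT box was searched as the letters of its name and on the other strand as ATTGG. The GC box was searched as GGGCGG on the printed strand and as CCGCCC for the opposite one. No motif overlaps another by its letters. The windows, on GRCm38.p6, are chr6:4505468-4505617 for Col1a2, chr1:45311388-45311537 for Col3a1 and chr2:27886275-27886424 for Col5a1 on the plus strand, and chr9:20815068-20815217 for Col5a3 on the minus strand. The Col1a2 window lies inside the gene as placed above, which starts at 4504814, so its RefSeq start differs from that one.
Col1a2: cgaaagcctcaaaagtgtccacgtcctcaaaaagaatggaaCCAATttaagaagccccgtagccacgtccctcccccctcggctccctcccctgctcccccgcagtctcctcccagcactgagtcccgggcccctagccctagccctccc
Col3a1: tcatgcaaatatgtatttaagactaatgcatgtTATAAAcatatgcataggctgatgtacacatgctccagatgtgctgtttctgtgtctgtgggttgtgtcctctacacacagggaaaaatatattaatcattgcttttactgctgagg
Col5a1: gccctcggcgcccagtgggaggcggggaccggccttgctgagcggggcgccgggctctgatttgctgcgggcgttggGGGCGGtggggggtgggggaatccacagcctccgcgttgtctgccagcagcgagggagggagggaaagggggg
Col5a3: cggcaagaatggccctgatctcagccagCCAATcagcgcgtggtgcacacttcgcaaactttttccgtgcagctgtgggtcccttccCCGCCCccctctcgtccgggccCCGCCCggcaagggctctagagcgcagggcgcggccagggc

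The 4 windows had no motif in common. By its letters, Col1a2 held a CCAAT box 109 bases before the start, Col3a1 a TATA box at 117 bases and Col5a1 a GC box at 73 bases. Col5a3 held a CCAAT box at 122 bases and GC boxes at 63 and 41 bases. Whether these matches act as promoter elements was not tested. Among 32851 promoter windows of the same length, 7.57% held the TATA box, 24.5% the CCAAT box and 28.6% the GC box. The Col3a1 window was 37.3% G and C and the other windows 62.7% to 74.7%, with a median of 54% over all windows.

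Cells were the barcodes in which over 1000 but under 7000 genes were detected, with under 8% of their UMIs (unique molecular identifiers, 1 per captured RNA molecule) mitochondrial, which left 3524 of 5566 Tom+ and 6717 of 11838 Tom- barcodes. A cell with at least 10 UMIs of Msln, Upk3b, Krt19, Lrrn4 and Upk1b together was called mesothelial and a cell with fewer than 5 stromal, which gave 3263 Tom+ and 4800 Tom- stromal cells and 250 and 1887 mesothelial cells. The 11 and 30 cells between these limits are in neither class. Stromal cells had a median of 14235 UMIs in Tom+ and 11270 in Tom-, and mesothelial cells 18601.5 and 14753. All 7 stromal progenitor markers were above 5 CPM (UMIs per 1000000 UMIs of the class) in stromal cells of both libraries, and the lists for endothelial, mural, Schwann and adipocyte cells each summed to at most 64.6 CPM there.

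Several properties of the libraries bear on every value below. With 1 library for each condition there is no test and no p-value, and Tom status and library preparation cannot be told apart. Intervals are exact 95% intervals for counting error only. The libraries had 2224 barcodes in common, among them 404 Tom+ and 75 Tom- stromal cells (12.4% and 1.56%) and 100 Tom+ and 207 Tom- mesothelial cells (40.0% and 11.0%). Although CD45+ cells had been sorted away, 8 immune and immunoglobulin genes summed to 60249 CPM in Tom+ and 14699 CPM in Tom- stromal cells. At least 10 UMIs of these 8 genes were found in 1726 of 3263 Tom+ and 191 of 4800 Tom- stromal cells. In 130 Tom+ and 50 Tom- stromal cells, immunoglobulin genes took over 10% of the UMIs, and 112 and 20 of these cells had a barcode in common with the other library. Ratios are therefore given also without these cells, a choice made once the data had been seen. Each captured RNA molecule gives 1 UMI from its 3′ end whatever its length, so CPM was not scaled by gene length. Differences in capture between genes were not tested, so comparisons between genes are of UMIs.

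In stromal cells the RNA of all 6 genes was higher in the Tom+ library, and the genes of types I and III stood about an order of magnitude above those of type V. For type I, Tom+ cells held 2758 CPM of Col1a1 (2744 to 2773) against 2287 (2275 to 2300) in Tom- cells, for a log2 ratio of 0.27 (0.26 to 0.28). For Col1a2 the levels were 4185 CPM (4168 to 4203) against 3063 (3049 to 3077), which gave a log2 ratio of 0.45 (0.44 to 0.46). The type III gene Col3a1 was the most abundant of the 6 in both libraries, with 5483 CPM (5462 to 5503) against 3611 (3595 to 3626), at a log2 ratio of 0.60 (0.59 to 0.61). The order Col3a1, Col1a2, Col1a1 was the same in both libraries.

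The type V genes lay close together in level and far apart in ratio. Col5a1 stood at 395 CPM (390 to 401) in Tom+ cells against 267 (262 to 271) in Tom- cells, with a log2 ratio of 0.57 (0.54 to 0.60). Col5a2 stood at 424 CPM (418 to 430) against 369 (364 to 374), with the lowest ratio of the 6 at 0.20 (0.17 to 0.23). Col5a3 stood at 348 CPM (342 to 353) against 211 (208 to 215), with the highest ratio at 0.72 (0.68 to 0.75). The 6 genes together reached 13593 CPM in Tom+ cells against 9808 in Tom- cells, with a log2 ratio of 0.47 (0.47 to 0.48) or 1.39-fold. The type V genes took 2.16% to 3.76% of these UMIs each.

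**Figure D1:**
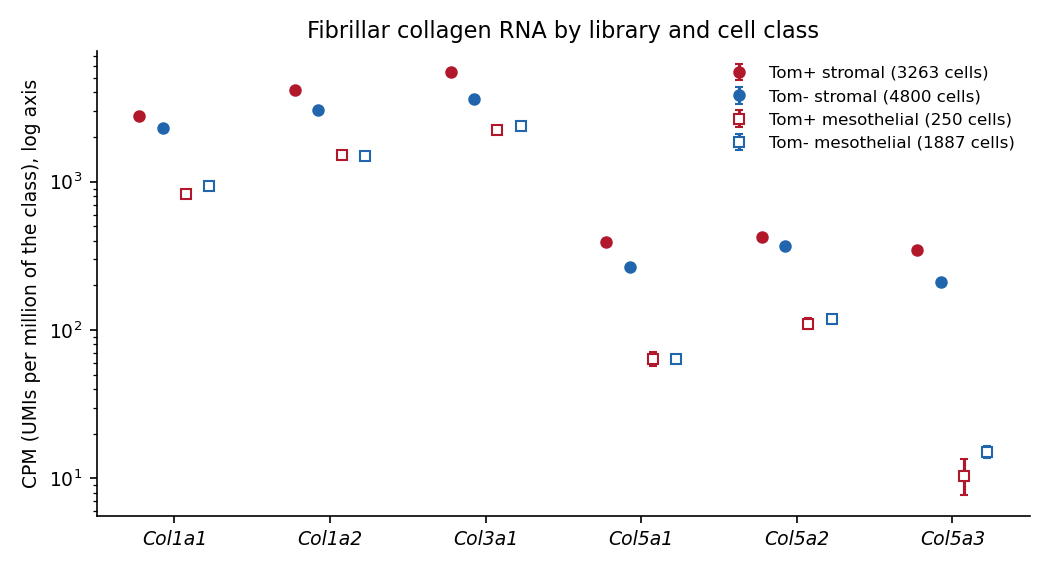
Level of each fibrillar collagen gene in CPM on a log axis, for stromal (circles) and mesothelial (open squares) cells of the Tom+ (red) and Tom- (blue) libraries, 1 library each, with exact Poisson 95% intervals that cover counting error only. Stromal cells lie above mesothelial cells for all 6 genes, by the widest gap for Col5a3 at 348 and 211 CPM against 10.3 and 15.1 CPM.

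Of the 9778 genes that averaged 5 CPM or more, 14.8% had a log2 ratio of at least 0.35 and 8.16% one of at most -0.35. Of the 6 collagen genes, 4 were past 0.35 (Col1a2, Col3a1, Col5a1 and Col5a3) and none past -0.35. Their percentiles among all genes were 97.9 for Col5a3, 96.5 for Col3a1, 95.8 for Col5a1, 91.8 for Col1a2, 77.5 for Col1a1 and 68.4 for Col5a2. The median ratio over all genes was 0.071, and scaled by median-of-ratios size factors, which take this shift out, the summed ratio was 0.40.

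The direction held without the cells in doubt. Without the immunoglobulin-rich cells the log2 ratios were 0.36 for Col1a1, 0.54 for Col1a2 and 0.69 for Col3a1. For Col5a1, Col5a2 and Col5a3 they were 0.66, 0.29 and 0.80. Col1a1 thus also passed 0.35, but the median over all genes rose too, from 0.071 to 0.136. At or above 0.35 were then 2071 of 9800 genes, against 1443 of 9778 with all stromal cells. Without the barcodes of both libraries the collagen ratios were 0.28, 0.46, 0.57, 0.59, 0.22 and 0.70 in the same order. The median over all genes was 0.129 there. The summed ratio was 0.46 without either kind of cell. Within tertiles of the stromal cells by UMIs per cell the summed ratio was 0.39, 0.23 and 0.38, and within tertiles by mitochondrial share 0.31, 0.48 and 0.57. A list of 30 genes that respond to tissue dissociation was lower in Tom+ for 27 genes, against 3867 of 9778 over all genes. Its median log2 ratio was -0.37, and within tertiles of cells by its UMIs the collagen ratio was 0.51, 0.43 and 0.38.

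Because the genes differed in ratio, the make-up of the collagen RNA differed too. Per Col1a1 UMI there were 1.52 Col1a2 UMIs (1.51 to 1.53) in Tom+ stromal cells and 1.34 (1.33 to 1.35) in Tom-, and 1.99 Col3a1 UMIs against 1.58 (1.57 to 1.59). Per Col5a2 UMI there were 0.932 Col5a1 UMIs (0.914 to 0.950) against 0.722 (0.707 to 0.737), and 0.820 Col5a3 UMIs (0.804 to 0.836) against 0.573 (0.560 to 0.585). These ratios are taken within a library and do not depend on its scaling. Col3a1 made up 40.3% of the collagen UMIs in Tom+ and 36.8% in Tom- stromal cells, and Col1a1 20.3% and 23.3%.

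In mesothelial cells the libraries were near each other for 5 of the genes. Tom+ cells held 826 CPM of Col1a1 (802 to 851) against 929 (919 to 940) in Tom- cells, for a log2 ratio of -0.17 (-0.22 to -0.12). For Col3a1 the levels were 2231 CPM (2191 to 2272) against 2388 (2371 to 2405), which gave a log2 ratio of -0.098 (-0.13 to -0.070). Col1a2 was at 1519 and 1492 CPM, Col5a1 at 64.2 and 64.0 CPM, and Col5a2 at 110 and 120 CPM, and the intervals of these 3 ratios held 0. Col5a3 stood at 10.3 CPM (7.78 to 13.5) from 55 UMIs in Tom+ cells against 15.1 (13.8 to 16.5) from 489 UMIs in Tom- cells, with a log2 ratio of -0.55 (-0.98 to -0.14). None of the 6 was at or above 0.35, against 7.33% of 10013 genes, and Col5a3 alone was at or below -0.35, against 4.27%. Without the barcodes of both libraries the interval of the Col5a3 ratio held 0.

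**Figure D2:**
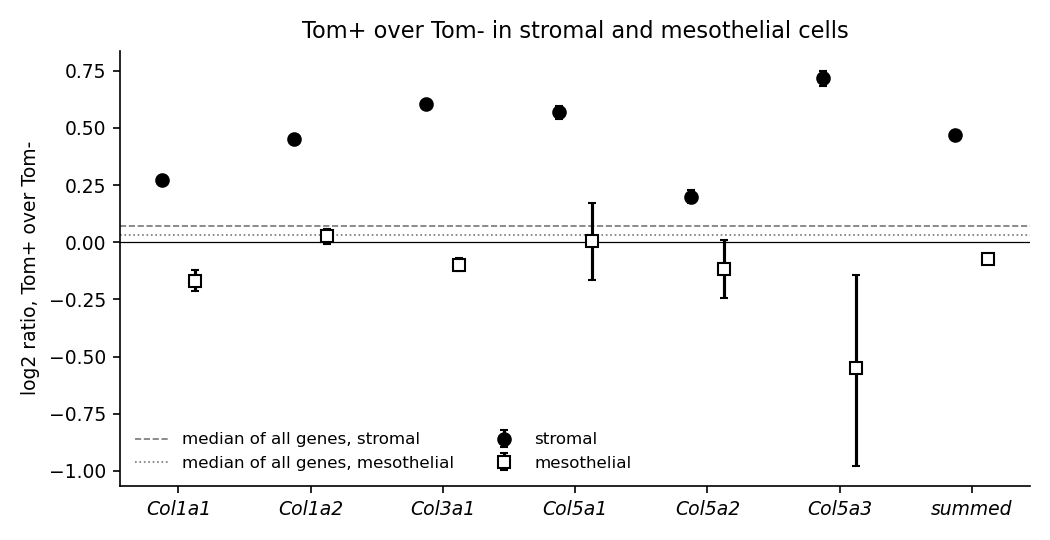
Log2 ratio of Tom+ over Tom- for each gene and for their sum in stromal (filled circles) and mesothelial (open squares) cells, with exact conditional 95% intervals for counting error only and the median over all genes as broken lines. Stromal ratios run from 0.20 to 0.72, and mesothelial ratios from -0.55 to 0.025.

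Within each library, all 6 genes were lower in mesothelial than in stromal cells. In the Tom+ library the log2 ratio of mesothelial over stromal was -1.30 for Col3a1, -1.46 for Col1a2, -1.74 for Col1a1, -1.94 for Col5a2, -2.62 for Col5a1 and -5.07 for Col5a3. In the Tom- library it was -0.60, -1.04, -1.30, -1.63, -2.06 and -3.81 for the same genes in the same order. All 6 genes in Tom+ and 5 of 6 in Tom- were at -1 or below, where 10.1% and 9.22% of all genes were, and 13.1% and 11.9% of all genes were at 1 or above, the 6 not among them. The order of the 6 genes was thus the same in both libraries, with the most abundant gene least different.

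Mesothelial cells held 40.7% of the stromal Col3a1 level in Tom+ and 66.1% in Tom-, and for Col5a3 2.97% and 7.15%. For comparison, the 7 stromal progenitor markers ranged from 4.48% to 147.9%. Gsn and Dpt were at 4.80% and 4.48% of their stromal level in Tom+ mesothelial cells and at 6.99% and 7.24% in Tom-. In the order Tom+ and Tom-, Pdgfra was at 12.2% and 18.2%, Ly6a at 15.3% and 15.1%, Mfap5 at 25.3% and 23.3% and Dcn, which codes for a proteoglycan that binds collagen fibrils, at 54.0% and 50.8%. Cd34 was higher in mesothelial cells, at 147.9% and 143.1%. Col3a1 was the leading gene of mesothelial cells as well, at 46.9% and 47.7% of their collagen UMIs, and per Col5a2 UMI they held 0.0935 (0.0696 to 0.123) and 0.126 (0.115 to 0.139) Col5a3 UMIs. The stromal progenitor markers summed to 11611 and 13676 CPM in mesothelial cells against 37194 and 46249 CPM in stromal cells. How far RNA from stromal cells contributed to the mesothelial values was not tested.

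To compare shares of cells, each cell was thinned to 7204 UMIs, which left out 240 Tom+ and 567 Tom- stromal cells and 3 and 84 mesothelial cells. Nearly all thinned stromal cells held a UMI of Col1a1, Col1a2 and Col3a1, with shares of 97.3% to 99.4%. Col5a3 was found in 67.2% (65.5 to 68.9) of Tom+ and 57.9% (56.4 to 59.4) of Tom- stromal cells, and in 6.48% (3.75 to 10.3) and 6.82% (5.70 to 8.09) of mesothelial cells. Before thinning these shares were 75.9% and 65.1% in stromal and 16.0% and 11.3% in mesothelial cells. Col5a1 was found in 84.7% and 76.6% of stromal cells and Col5a2 in 85.5% and 84.1%, against 36.4% and 32.5% and against 47.0% and 48.3% of mesothelial cells. Unthinned, they were found in 91.5% and 84.3%, and in 91.4% and 88.4%, of stromal cells. For type I and III genes the shares were slightly lower in Tom+, against the order of their CPM, and no order is read from them.

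Collagen RNA was unevenly spread over stromal cells. The 6 genes took a median of 1.06% of a Tom+ cell's UMIs and 0.712% of a Tom- cell's, and at most 10.3% and 14.8%. They took at least 5% in 39 of the Tom+ cells (1.20%, 0.851 to 1.63) and 31 of the Tom- cells (0.646%, 0.439 to 0.915). The 10% of cells with the highest share held 32.4% and 33.9% of all collagen UMIs. In mesothelial cells the median share was 0.371% and 0.373%, and no mesothelial cell reached 5%.

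**Figure D3:**
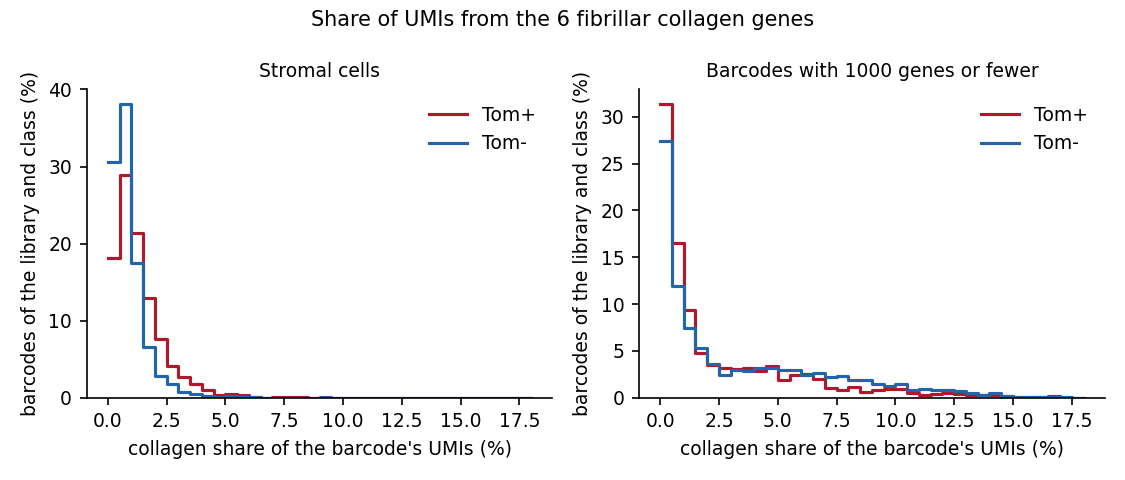
Distribution over barcodes of the share of UMIs that came from the 6 genes, for stromal cells (left) and for barcodes with 1000 genes or fewer (right), as a percent of the barcodes of each library. The stromal medians are 1.06% for Tom+ and 0.712% for Tom-, and the barcodes with few genes have a long upper tail with 18.7% and 29.6% of them at 5% or more.

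Over thinned stromal cells the 3 abundant genes varied together most. Pearson's r of log values was 0.84 for Col1a1 with Col1a2 in Tom+ and 0.75 in Tom-, 0.81 and 0.69 for Col1a1 with Col3a1, and 0.81 and 0.71 for Col1a2 with Col3a1, over 3023 and 4233 cells that share a library and a depth. The loosest pair was Col1a2 with Col5a3, at 0.35 and 0.18. Col5a3 stood nearest to Col3a1, at 0.52 and 0.41. The neighbours Col3a1 and Col5a2 were at 0.60 and 0.52, near the 0.58 and 0.46 of Col3a1 with Col5a1, which lies on another chromosome. UMIs of the type V genes are few per cell, 1.52 to 3.11 on average after thinning, and sparse counts lower such values. The immunoglobulin-rich cells were not left out of these pairs. Before thinning, their summed collagen level was 2627 CPM against 14853 CPM in other stromal cells of Tom+, and 2021 against 10067 CPM in Tom-. The part of these cells in the pair values was not tested.

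The genes most alike to the summed collagen genes were then ranked by the mean correlation of the libraries over thinned stromal cells, among 2838 genes of at least 50 CPM with a median of 0.042. Sparc, which codes for a collagen-binding matrix protein, led with 0.86. The others in the top 10 were Col6a1 (0.62), Serpinh1 (0.58), which codes for the collagen chaperone HSP47, Col6a2 (0.57), Col6a3 (0.54), Col4a2 (0.50), Col4a1 (0.50), Serpinf1 (0.47), Mmp2 (0.47) and Fstl1 (0.44). Of these 10, the 5 genes of types IV and VI are collagens themselves. The most opposite were Cd74 (-0.44), Mzb1 (-0.42), Iglc2 (-0.41), Ly6d (-0.40) and Igkc (-0.39). Ranked by Spearman correlation, 8 of the 10 and 2 of the 5 were again at the ends. Without the immunoglobulin-rich cells 8 of the 10 remained and only Cd74 of the 5, at -0.23, while the other 4 moved to between -0.056 and -0.049.

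Stromal cells were also split by markers of progenitor states, with lists that hold no collagen. Interstitial progenitors (Dpp4, Pi16, Anxa3, Cd55, Sema3c, Wnt2) are early, multipotent cells, and committed preadipocytes (Pparg, Fabp4, Icam1, Cd36, Lpl, Cxcl14, G0s2) are on the way to adipocytes. A thinned cell with at least 3 UMIs of 1 list and fewer of the other was put in that class. This cut is low for the committed list. The median thinned Tom+ stromal cell without tdTomato held 13 of its UMIs and 3 of the interstitial list. The committed class is thus largely stromal cells with few interstitial UMIs. The class names stand for these cuts and not for a settled cell state. The 6 genes summed to 7697 CPM (7562 to 7835) in 221 Tom+ interstitial cells and 15380 CPM (15304 to 15456) in 1432 committed cells, a log2 ratio of -0.999 (-1.03 to -0.97). In Tom- they summed to 6488 CPM (6388 to 6590) in 342 and 9616 CPM (9568 to 9664) in 2215 cells, a ratio of -0.57 (-0.59 to -0.54). Collagen RNA was thus lower in the interstitial than in the committed class, as cut here, in both libraries. Cells with at least 3 UMIs of each list were at 12879 CPM (12806 to 12953) in 1269 Tom+ cells, below the committed cells, and at 10092 CPM (10033 to 10150) in 1575 Tom- cells, above them.

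Tom+ over Tom-, the summed log2 ratio was 0.68 in committed cells, 0.35 in cells with both kinds of marker and 0.25 in interstitial cells. In committed cells Col3a1 reached 6228 CPM in Tom+ against 3477 in Tom-, with a log2 ratio of 0.84 (0.82 to 0.86). The Col1a1 ratio was 0.48 in these cells. Among interstitial cells, the Col3a1 ratio was 0.25 (0.19 to 0.31). Col1a1 reached 1452 CPM against 1424 in interstitial cells, with a ratio of 0.027 (-0.049 to 0.10). Their other ratios were 0.65 for Col5a3, 0.41 for Col5a1, 0.36 for Col1a2 and -0.012 (-0.19 to 0.16) for Col5a2. The 101 cells of each library with neither kind of marker were lower in Tom+, at 4610 against 6077 CPM (-0.40), but 69 and 26 of them were immunoglobulin-rich. Without those the ratio turned to 0.79 over 32 and 75 cells, and without the barcodes of both libraries to 0.45.

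**Figure D4:**
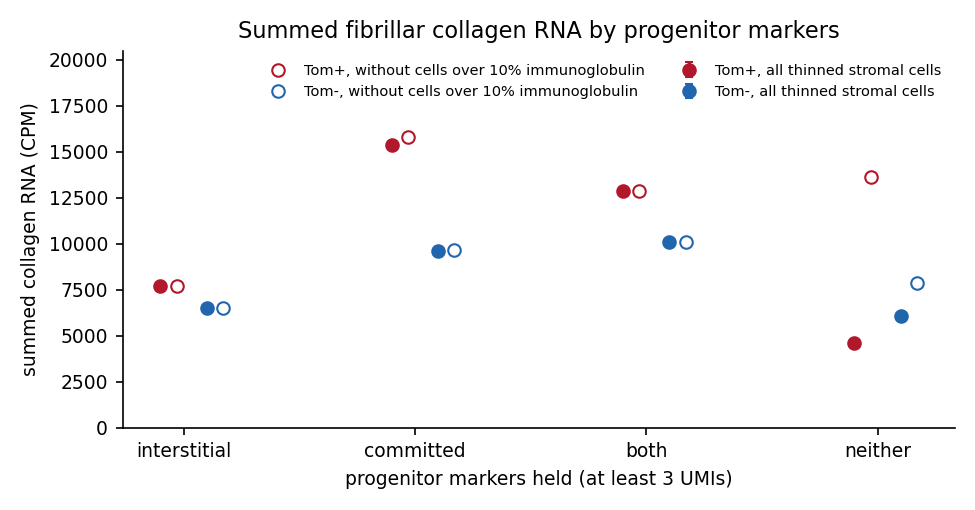
Summed level of the 6 genes in CPM, from 0, for thinned stromal cells by the progenitor markers they hold in the Tom+ (red) and Tom- (blue) libraries, with exact Poisson 95% intervals mostly smaller than the points. Open circles leave out cells with over 10% immunoglobulin UMIs, which turns the order of the libraries in cells with neither marker and in no other class.

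The reporter itself reached 211 CPM in Tom+ against 13.1 in Tom- stromal cells, and 780 and 8.25 CPM in mesothelial cells. Before thinning, a tdTomato UMI was found in 28.6% of Tom+ and 13.1% of Tom- stromal cells. Most stromal cells sorted as Tom+ thus showed none. The level was 665 CPM in the 130 immunoglobulin-rich Tom+ stromal cells and 159 CPM in the other 3133. Within the Tom+ library, stromal cells with at least 5 tdTomato UMIs had lower collagen RNA than those with none, the opposite direction to that between the libraries. The 6 genes summed to 13892 CPM in 2157 cells without a tdTomato UMI, 15236 CPM in 567 cells with 1 to 4 UMIs and 6455 CPM in 299 cells with at least 5, a log2 ratio to the cells without of 0.13 (0.12 to 0.15) and -1.11 (-1.13 to -1.08). Each of the 6 genes was lower in the highest group, from -0.90 for Col5a2 to -1.22 for Col3a1. The same count over all genes was not made, with or without the cells in doubt. No result particular to the collagen genes is therefore read from it. Immune and immunoglobulin genes summed to 235965 CPM in the highest group against 1133 CPM in cells without tdTomato. The stromal progenitor markers were lower there too, at 28760 against 41771 CPM. No thinned Tom- stromal cell had 5 tdTomato UMIs. The tdTomato UMIs were counted before thinning, so the groups rise with depth, and the median cell held 14378, 15382 and 17520 UMIs before thinning. With tdTomato counted after thinning as well, 235 cells with at least 5 UMIs and 2431 with none had medians of 14772 and 14585 UMIs and a log2 ratio of -1.01 (-1.04 to -0.98).

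The group with the most tdTomato UMIs held the highest share of cells in doubt. Of its 299 cells, 119 (39.8%) were immunoglobulin-rich and 121 (40.5%) had a barcode of both libraries, against 1 and 189 (8.76%) of the 2157 cells without tdTomato. Without either kind, 164 cells with at least 5 tdTomato UMIs were at 8744 CPM and 1968 cells without at 13340 CPM, a log2 ratio of -0.61 (-0.64 to -0.58). The 6 genes were all lower in these cells, by ratios from -0.45 for Col5a2 and Col1a1 to -0.85 (-1.05 to -0.66) for Col5a3. How many of all genes were lower there was not counted. The summed level of the stromal progenitor markers was 42650 CPM in these 164 cells and 42615 CPM in the 1968. Their immune and immunoglobulin genes summed to 2075 against 950 CPM, and their dissociation genes to 44911 against 39144 CPM. The part of these in the result was not tested.

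**Figure D5:**
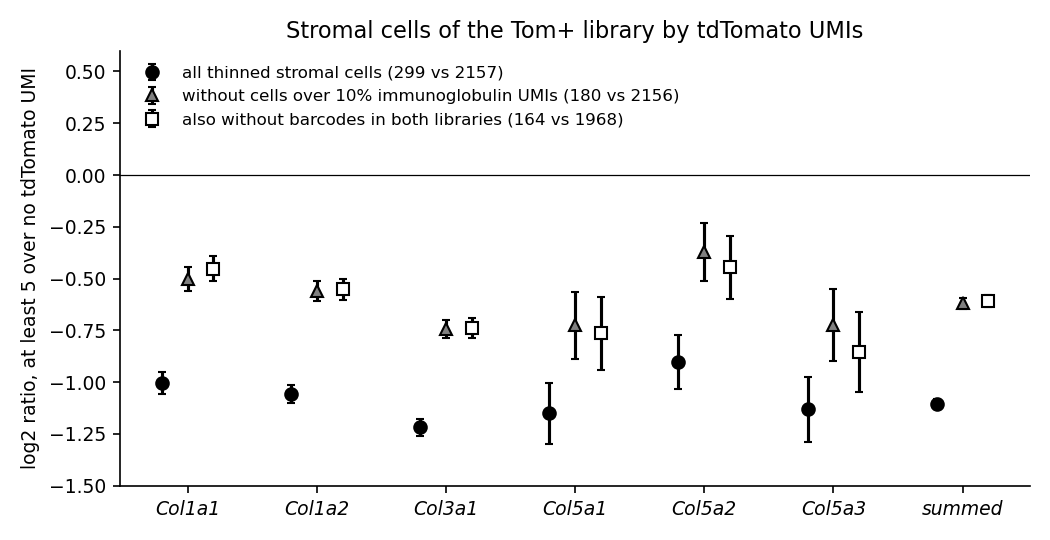
Log2 ratio of each gene and of their sum between stromal cells of the Tom+ library with at least 5 tdTomato UMIs and those with none, with tdTomato counted before and collagen after thinning to 7204 UMIs, with exact conditional 95% intervals for counting error only. All points lie below 0, at -1.11 for the sum over all cells, -0.62 without immunoglobulin-rich cells and -0.61 when barcodes of both libraries are also left out.

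Within the progenitor classes, and without the cells in doubt, the same comparison gave -0.83 (-0.87 to -0.78) in committed cells (77 against 896), -0.99 (-1.14 to -0.85) in interstitial cells (14 against 160) and -0.30 (-0.34 to -0.25) in cells with both markers (70 against 891). Cdkn2a, the gene of p16, reached 4.66 CPM in Tom+ against 5.79 in Tom- stromal cells, a log2 ratio of -0.31 (-0.56 to -0.069). In mesothelial cells it went the other way, at 12.4 against 8.47 CPM, a ratio of 0.55 (0.14 to 0.94). By qPCR, the paper reported p16 RNA as higher in sorted Tom+ than in Tom- adipose progenitor cells of old mice. Stromal cells with a Cdkn2a UMI differed in summed collagen RNA from those without by -0.026 (-0.055 to 0.0027) over 106 cells in Tom+. In Tom- they differed by 0.30 over 155 cells. Cdkn2a UMIs were counted before thinning, and the cells in doubt were kept. The median cell with and without a Cdkn2a UMI held 15557.5 and 14639 UMIs in Tom+, and 13355 and 11722.5 in Tom-. For Col1a1 the difference was -0.058 (-0.12 to 0.0058) in Tom+ and 0.48 (0.43 to 0.53) in Tom-. For Col5a3 the difference was -0.24 in Tom+ and -0.69 in Tom-, and unthinned -0.073 (-0.18 to 0.037) and -0.56 (-0.71 to -0.41).

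The other fibrillar collagen genes were far below the 6. Col27a1 reached 22.3 CPM in Tom+ against 21.6 in Tom- stromal cells, and at 3.38 and 4.85 CPM in mesothelial cells. Col2a1, Col11a1, Col11a2 and Col24a1 were each under 1.2 CPM in stromal and mesothelial cells of both libraries.

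Genes that act with fibrillar collagens were described from fixed lists, by the log2 ratio of Tom+ over Tom- in stromal cells, where 5911 of 9778 genes were higher and 3867 lower. Of 17 other collagen genes, 11 were higher and 6 lower, with a median of 0.26. The basement membrane genes Col4a6 (0.82) and Col4a5 (0.61) and Col6a3 (0.75, 577 against 342 CPM), of beaded filaments, were highest. Col15a1 (-0.40), Col12a1 (-0.47) and Col8a1 (-1.09, 8.26 against 17.5 CPM) were lowest.

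Of 19 genes that modify and export the chains inside the cell, 9 were higher and 10 lower. Their median was -0.057, against 0.071 over all genes, of which 5911 of 9778 were higher. Plod1 (0.40), a lysyl hydroxylase, was the only one at or above 0.35, where 14.8% of all genes were. At or below -0.35 were 2 of the 19, where 8.16% of all genes were. Mia3 (0.30) and Sec24d (0.27), which serve export of procollagen, came next after Plod1. The lowest were P3h3 (-0.42) and P4ha2 (-0.35), of the prolyl hydroxylases, and P3h4 (-0.26). Of the 9 genes that cut propeptides or cross-link fibrils, 6 were higher, with a median of 0.18. Loxl2 (0.61, 190 against 125 CPM) and Lox (0.39, 356 against 271 CPM), which cross-link collagen, and Pcolce2 (0.36) were highest. Pcolce (-0.47, 229 against 318 CPM), an enhancer of the propeptide protease, was lowest, below Loxl3 (-0.33) and the protease gene Bmp1 (-0.070).

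Outside the cell the lists were mixed. Of 13 genes that regulate fibrils, 8 were higher and 5 lower, with a median of 0.29. Over all genes 5911 of 9778 were higher, with a median of 0.071. The counts of higher genes in the fibril and degradation lists lay near that share. Postn (1.02, 440 against 217 CPM), Dpt (0.61) and Thbs2 (0.59) were highest, and the proteoglycan genes Prelp (-0.37), Bgn (-0.49, 940 against 1322 CPM) and Fmod (-1.35, 12.9 against 32.9 CPM) lowest. Among 6 receptor genes the median was 0.11. The integrin gene Itga11 (0.42), Mrc2 (0.25), which takes up collagen, and Ddr2 (0.21) were highest, followed by Ddr1 (0.016), Itgb1 (-0.010) and Itga1 (-0.96). Of 9 degradation genes 6 were higher, with a median of 0.32, led by the proteases Mmp14 (0.71, 419 against 256 CPM), Mmp3 (0.60) and Mmp2 (0.58, 825 against 553 CPM). Fap (-0.017), Ctsl (-0.36) and the inhibitor Timp1 (-0.96, 70.7 against 138 CPM) were lowest. In the dissociation list Klf6 (0.22), Egr2 (0.044) and Egr1 (0.027) were highest, and Csrnp1 (-0.83), Nr4a2 (-0.84) and Socs3 (-0.85) lowest.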

How the data were processed

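Single-cell suspensions of sorted gWAT cells were made into 10x Genomics 3′ v3.1 libraries, sequenced on a DNBSEQ instrument and counted by the authors with Cell Ranger 3.0.2 on mm10 with tdTomato added. The deposited matrices hold UMI counts per gene and barcode, whole numbers with no normalization, 61119807 in the Tom+ and 96872394 in the Tom- library. The 6 genes, the lists, the gene limits and the classes were chosen with earlier results of these data known. Counts were summed per library and class, scaled to CPM (per 1000000 UMIs of the class) and compared as log2 ratios with exact Poisson and Clopper-Pearson 95% intervals (Python 3.11.15, numpy 2.4.6, scipy 1.17.1). No test was run, since each condition has 1 library and cells are not replicates. Thinning drew 7204 UMIs per cell, the 10th percentile of stromal cells. PCR duplicates are collapsed by UMI, and intervals cover counting error only. No doublet caller was run, and cells with 5 to 9 mesothelial UMIs were left out of both classes. Named genes were the 6 members, the other fibrillar genes, tdTomato, Cdkn2a, the 3 highest and 3 lowest of each list and the 10 most alike and 5 most opposite genes. Gene coordinates and coding sequences came from GENCODE vM21 on GRCm38 and promoters from RefSeq. The calculations were tested on simulated counts. Alternatives were other scalings, filters, thinning, limits for the classes and cells left out.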

Additional observations from a re-analysis of the deposited data

Results flagged for a closer look

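Col1a1, Col3a1 and Col5a3 had opposite signs in the classes, with intervals that left out 0 in both. Their log2 ratios of Tom+ over Tom- in mesothelial cells were -0.17, -0.098 and -0.55, where the stromal ratios were 0.27, 0.60 and 0.72. Col5a2 also differed in sign, at 0.20 in stromal and -0.12 in mesothelial cells, but its mesothelial interval (-0.24 to 0.010) held 0. The share of all genes with opposite signs is not given here. For Col1a1, Col3a1 and Col5a3 the differences between stromal and mesothelial ratios were 0.44, 0.70 and 1.27. They were not tested, since each condition has 1 library. Without the barcodes of both libraries the mesothelial ratios were -0.25 for Col1a1, -0.20 for Col3a1 and -0.62 for Col5a3. The interval for Col5a3 (-1.33 to 0.010) then held 0.

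Barcodes with 1000 genes or fewer, which no comparison used, held collagen RNA above the stromal level, in Tom+ only where the barcode was in both libraries. The 6 genes took a median of 1.10% of their UMIs in 1892 Tom+ barcodes and 1.75% in 4969 Tom- barcodes, against 1.06% and 0.712% in stromal cells. The median barcode held 644 and 682 UMIs. In these barcodes Col1a1 reached 5549 CPM in Tom+ against 9723 in Tom-, Col1a2 at 5141 and 8114 CPM, Col3a1 at 7297 and 12819 CPM, Col5a1 at 418 and 681 CPM, Col5a2 at 616 and 967 CPM and Col5a3 at 150 and 187 CPM. Col5a3 alone was below its stromal level in both libraries. Col1a2 was below Col1a1, with 0.926 and 0.834 Col1a2 UMIs per Col1a1 UMI, and so in the other order than in stromal cells. At least 5% of the UMIs came from the 6 genes in 354 (18.7%) and 1472 (29.6%) of the barcodes, and at most 16.8% and 17.7%. Of these low-gene barcodes, 88.7% in Tom+ and 38.5% in Tom- were in both libraries. In the 214 Tom+ barcodes found in 1 library the median was 0.317%, Col1a1 was at 1041 CPM, below its stromal 2758 CPM, and Col1a2 was above it at 1682 CPM, the stromal order. In the 1678 Tom+ barcodes of both libraries the median was 1.25% and Col1a1 was at 6784 CPM. In Tom- the median was 2.41% with Col1a1 at 11144 CPM and Col1a2 at 8958 CPM in 3056 barcodes of 1 library, and 1.35% with Col1a1 at 8025 CPM in 1913 of both.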

How the results depend on the processing

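No test was run, so there is no threshold for a call to cross. The summed collagen ratios below kept their direction in every alternative listed for them. In stromal cells with neither kind of progenitor marker the ratio turned from -0.40 to 0.79 without immunoglobulin-rich cells and 0.45 without barcodes of both libraries, and in mesothelial cells it turned from 0.025 to -0.022 for Col1a2 and from 0.0055 to -0.0083 for Col5a1 without those barcodes. No paired analysis was possible because each condition has 1 library, so no library could be left out either. The summed stromal log2 ratio of Tom+ over Tom- was 0.47. It was 0.50 as a mean over cells, 0.50 thinned, 0.45 with mitochondrial UMIs under 5% and 0.48 in cells without a mesothelial UMI. Without cells of 10 UMIs from other cell type lists it was 0.44. That filter removed 1745 of 3263 Tom+ and 258 of 4800 Tom- stromal cells. Of those removed, 1726 and 191 held 10 UMIs of the immune and immunoglobulin list. The ratio was 0.58 without the 10% of cells with the most UMIs and 0.46 without barcodes of both libraries. It was 0.56 without immunoglobulin-rich cells and 0.40 with size factors. Over all cells the ratio was 0.66. There the libraries also differ in mesothelial cells, 250 of 3524 cells in Tom+ and 1887 of 6717 in Tom-. By tertiles of the thinned stromal cells the ratio was 0.39, 0.23 and 0.38 (UMIs), 0.51, 0.43 and 0.38 (dissociation UMIs) and 0.31, 0.48 and 0.57 (mitochondrial share). The tertiles, the immunoglobulin alternatives and counting tdTomato after thinning were chosen after seeing the data, as was leaving out the barcodes of both libraries in the comparisons other than the stromal collagen ratios of Tom+ over Tom-.

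Mesothelial over stromal was -1.53 and -1.03 as a mean over cells, -1.55 and -1.05 thinned and -1.66 and -1.05 without barcodes of both libraries in Tom+ and Tom-, and -0.95 in Tom- with mesothelial cells taken from 30 UMIs. Leaving out mesothelial cells with 10 stromal progenitor UMIs gave no value, since it removed all 250 and 1887 cells. The tdTomato ratio was -1.56 unthinned, -1.01 with tdTomato counted after thinning, -0.68 without barcodes of both libraries and -0.62 without immunoglobulin-rich cells. Interstitial over committed was -0.87 and -0.63 at 6 UMIs. Medians over cells with 20 UMIs of the second gene were 1.5 and 1.22 for Col1a2 per Col1a1, 1.85 and 1.39 for Col3a1 per Col1a1 and 0.737 and 0.522 for Col5a1 per Col5a2.

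Genes higher and lower past 0.35 numbered 1443 and 798, 4522 and 3280 with no filter on low values, and 956 and 1086 with size factors. In order of the settings size factors, without cells of other cell type lists, without barcodes of both libraries and no filter, receptor genes had medians of 0.040, 0.21, 0.18 and 0.25 and degradation genes 0.25, 0.39, 0.45 and 0.42. Fibril regulation moved to 0.21 with size factors, 0.36 without barcodes of both libraries and 0.22 with no filter, and the dissociation list to -0.44 with size factors, -0.27 without cells of other lists and -0.29 without barcodes of both libraries. Other collagens moved to 0.34 without barcodes of both libraries, modification to -0.13 with size factors and -0.10 with no filter, and propeptide and cross-link genes to 0.11 with size factors. The cause of these shifts was not tested. At this depth 3 counts stand for at most 0.564 CPM in stromal and mesothelial cells, and counting error was widest for Col5a3 in Tom+ mesothelial cells, with 55 UMIs.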

Other observations

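Among the barcodes with 1000 genes or fewer, the 354 of the Tom+ library with at least 5% collagen UMIs held 25314 CPM of Col1a1 and 29828 CPM of Col3a1. They also held Spp1 at 5065 CPM, Tnc at 1299 CPM, Cthrc1 at 1100 CPM and Postn at 3581 CPM, and Gsn at 1173 CPM, which was 14709 CPM in Tom+ stromal cells. Spp1, Tnc and Cthrc1 were chosen after their values were seen. In the 214 low-gene Tom+ barcodes found in 1 library there was 1 Spp1 UMI and no UMI of Tnc or Cthrc1, with Postn at 134 CPM. In Tom-, Spp1 was at 3552 CPM in the 1472 barcodes with at least 5% collagen UMIs and at 4301 CPM in the 3497 others. Col11a1, a fibrillar collagen of cartilage, reached 15.0 CPM in all low-gene Tom+ barcodes against 27.7 in those of Tom-, and Col24a1 at 12.0 and 13.3 CPM, against under 1.2 CPM in cells. In Tom+ all 25 Col11a1 and all 20 Col24a1 UMIs were in barcodes of both libraries. In Tom-, 78 of 106 and 25 of 51 were in barcodes of 1 library.

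By tertiles of the stromal cells in summed collagen level, the Col3a1 share of the collagen UMIs was 29.3% in the lowest and 43.3% in the highest tertile of Tom+ cells, and 26.6% and 39.8% in Tom-. The Col1a2 share went from 39.7% to 28.4% and from 39.3% to 28.8%. Part of this follows from the construction, since Col3a1 is itself part of the sum that orders the cells.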
